A study of Mus musculus with 4 samples.

Results

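Jun, Zfp36, Dusp1, Klf6, Txnip and Ddit3 are immediate early and stress response genes, and their RNA levels were followed in G1E cells, a mouse erythroblast line derived from cells that lack GATA-1. The genes were chosen by symbol, as every row that carries 1 of these 6 symbols in any of the 6 tables the authors deposited. All 6 genes were found, among 2982 genes that the tables hold in all. RNA-seq was done on 4 groups of 1 sample each: cells given the wild-type protein (GATA-1 WT), cells given 1 of 2 mutants of it (GATA-1 2RA, GATA-1 V205M), and a G1E control. All groups share the G1E background and an induction with β-estradiol (spelled β-estrodiol in the labels). Whether each group is 1 clone, how GATA-1 was put into the cells and what the control carries is not stated in the labels, nor is the change that 2RA stands for. V205M is known as a substitution that weakens the contact of GATA-1 with its cofactor FOG-1.

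Each table sets one group against another and keeps only those genes whose adjusted p fell under 0.01 while the change exceeded 2-fold. These are called listed here, and a gene that is not listed in a comparison either missed those limits or was not tested there. A level is the number of reads divided by a size factor of the library, written as scaled reads, and it was read from whichever table held the gene. Whole reads behind the levels were recovered, with 1 count column for GATA-1 WT and for GATA-1 2RA, and 2 count columns for GATA-1 V205M and for G1E control. Over the genes in the tables these columns held 2178397 reads in GATA-1 WT cells, 1218762 in GATA-1 2RA cells, 1147539 and 977544 in GATA-1 V205M, and 1015015 and 276064 in G1E control. Because each group is 1 sample, no difference between groups has a replicate check. The folds given here carry no test of the conditions. Each fold is given with a 95% counting interval from the pooled reads, which covers counting error only and need not be centred on the fold. The lowest recovered count was 1 in every column. Whether 1 had been added to each count is not stated in the labels, so low counts, and intervals from them, may overstate the reads.

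Immediate early genes are switched on within minutes of a signal, without new protein synthesis, and their RNAs are short-lived. Jun and Klf6 encode transcription factors of this first wave, while Zfp36 and Dusp1 encode brakes on it: an mRNA decay protein and a phosphatase of MAP kinases. Txnip and Ddit3 answer to nutrient, redox and protein-folding stress. In maturing erythroblasts the supply of heme, iron and amino acids is sensed by the integrated stress response, in which kinases such as HRI (Eif2ak1) phosphorylate eIF2α.

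In the RefSeq annotation of GRCm38.p6 the 6 genes lie on 6 chromosomes. Jun is at 95049036 to 95052222 on the minus strand of chromosome 4, Zfp36 at 28376784 to 28379228 on the minus strand of chromosome 7, and Dusp1 at 26505591 to 26508472 on the minus strand of chromosome 17. Klf6 is at 5861489 to 5870393 on the plus strand of chromosome 13, Txnip at 96557957 to 96561857 on the plus strand of chromosome 3, and Ddit3 at 127290793 to 127296291 on the plus strand of chromosome 10. All 6 had a promoter in the RefSeq table. The 250 bases before the start of 4 of them are printed, 1 for each pattern of levels described further on: highest in GATA-1 2RA (Jun), low in GATA-1 V205M (Zfp36), high in GATA-1 WT alone (Dusp1) and graded over the groups (Ddit3). They are at chr4:95052223-95052472 (minus strand), chr7:28379229-28379478 (minus strand), chr17:26508473-26508722 (minus strand) and chr10:127290543-127290792 (plus strand). Capitals mark matches to the motifs searched.
Jun: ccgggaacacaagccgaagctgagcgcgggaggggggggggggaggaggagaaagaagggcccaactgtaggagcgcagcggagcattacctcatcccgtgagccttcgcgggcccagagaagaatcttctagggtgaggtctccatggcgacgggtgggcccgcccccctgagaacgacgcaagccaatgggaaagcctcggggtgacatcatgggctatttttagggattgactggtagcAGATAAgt
Zfp36: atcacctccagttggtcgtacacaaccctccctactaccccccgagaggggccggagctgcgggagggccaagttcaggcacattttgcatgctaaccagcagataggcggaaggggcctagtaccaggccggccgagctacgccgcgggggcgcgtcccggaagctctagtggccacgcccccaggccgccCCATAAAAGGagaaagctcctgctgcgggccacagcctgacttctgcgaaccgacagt
Dusp1: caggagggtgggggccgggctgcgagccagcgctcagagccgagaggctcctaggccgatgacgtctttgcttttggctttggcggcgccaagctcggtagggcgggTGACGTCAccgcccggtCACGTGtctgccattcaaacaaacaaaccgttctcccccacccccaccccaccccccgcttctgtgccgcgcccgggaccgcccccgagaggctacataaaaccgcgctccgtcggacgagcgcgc
Ddit3: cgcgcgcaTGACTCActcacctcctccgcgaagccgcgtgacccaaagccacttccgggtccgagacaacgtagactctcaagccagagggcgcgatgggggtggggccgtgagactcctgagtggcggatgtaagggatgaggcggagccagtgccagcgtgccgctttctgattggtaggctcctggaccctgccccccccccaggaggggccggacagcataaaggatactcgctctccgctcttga

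The motifs were searched on both strands over 250 bases before to 50 bases after the start, in the 6 genes and in all 32851 promoters of the table. Jun held a GATA site, AGATAA, that begins 8 bases before the start, and 11.2% of all promoters hold this word. Zfp36 held a serum response element that begins 58 bases before its start, against 1.63% of all promoters. Its letters also hold an A-and-T-rich stretch of the TATA-box kind. Dusp1 held the cyclic AMP response element TGACGTCA 143 bases before its start (1.79% of all promoters) and the E-box CACGTG 126 bases before it (7.15%). Klf6 held the same E-box 43 bases before its start. Ddit3 held an AP-1 site of the form TGANTCA 242 bases before its start (7.81% of all promoters) and a reverse-strand GATA match 7 bases after it, outside the printed bases. The C/EBP-ATF composite TGATGCAA, held by 0.895% of all promoters, matched none of the 6, and Txnip held none of the 6 motifs. These are matches of letters and show no binding in these cells.

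The 6 genes did not share one pattern over the groups. Txnip and Ddit3 stood highest in GATA-1 WT, then GATA-1 2RA, then GATA-1 V205M, and lowest in G1E control. Dusp1 was high in GATA-1 WT alone, Klf6 was high in GATA-1 WT and GATA-1 2RA, and Jun was highest in GATA-1 2RA. Zfp36, which has no level for GATA-1 WT, was lowest in GATA-1 V205M among the other groups. Gata1, the introduced gene, had 2652 scaled reads in GATA-1 WT cells, 1421 in GATA-1 2RA cells and 613 in GATA-1 V205M cells, against 153 in G1E control. The order of the groups is thus the same for Gata1, Txnip and Ddit3, and with 4 samples the part of the Gata1 level in these results was not tested.

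**Figure D1:**
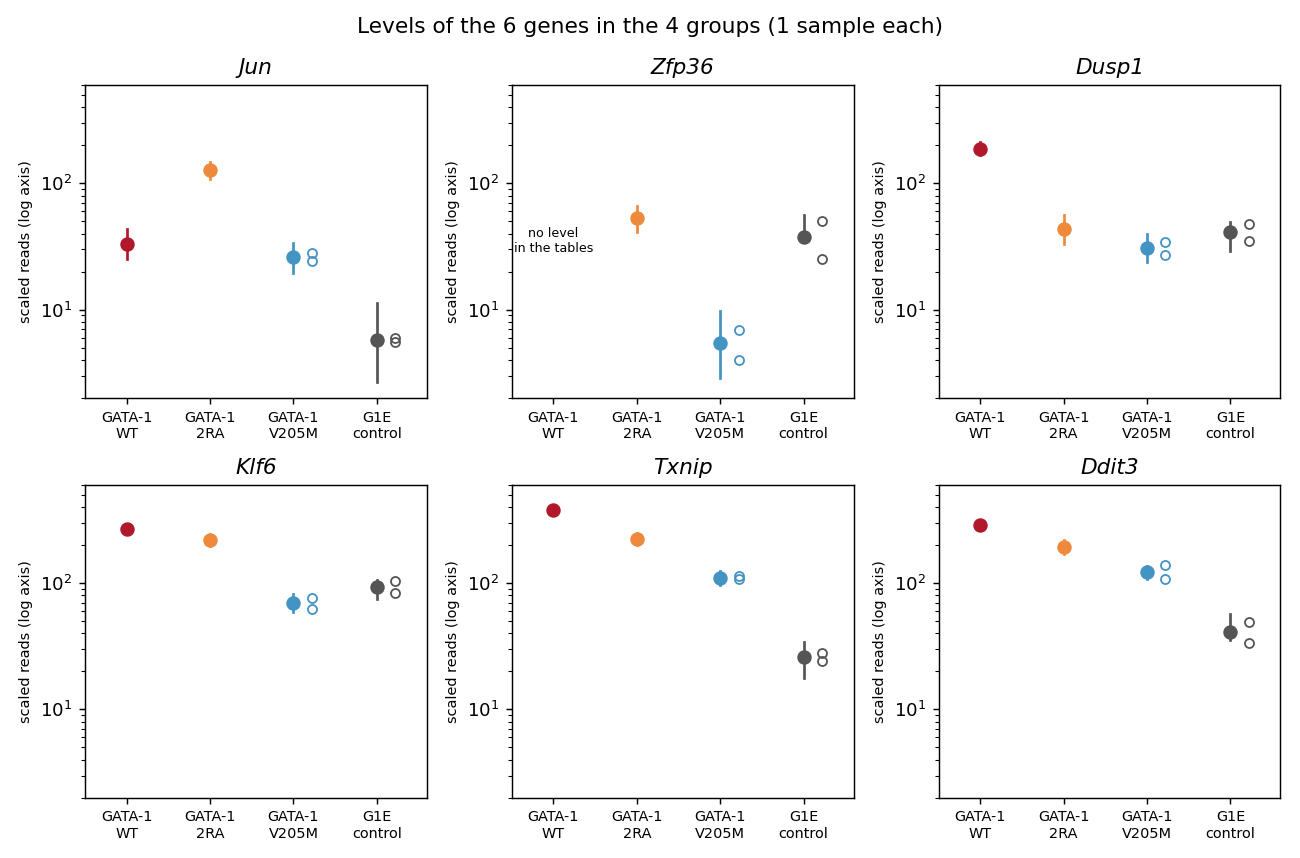
Level of each of the 6 genes (scaled reads, log axis) in the 4 groups, with filled points for the group, bars for the 95% counting interval and open points for the 2 count columns of GATA-1 V205M and G1E control. Jun peaks in GATA-1 2RA at 126.5 scaled reads, Dusp1 in GATA-1 WT at 188, and Txnip and Ddit3 step down from GATA-1 WT to G1E control, while Zfp36 has no level for GATA-1 WT in the tables.

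Jun encodes the AP-1 subunit c-Jun, which pairs with Fos or ATF proteins. It had 33.4 scaled reads (53 reads) in GATA-1 WT, 126.5 (177 reads) in GATA-1 2RA and 26.1 (28 reads in each column) in GATA-1 V205M, against 5.80 (7 and 2 reads) in G1E control. Every GATA-1 group stood above the control, whose level rests on 9 reads. Against G1E control the fold was 5.76 (95% counting interval 2.77 to 13.0) in GATA-1 WT cells, 21.8 (11 to 47.6) in GATA-1 2RA cells and 4.50 (2.15 to 10.1) in GATA-1 V205M cells, and all 3 were listed. Jun was also listed as 3.79-fold (2.77 to 5.25) higher in GATA-1 2RA than in GATA-1 WT and 4.85-fold (3.6 to 6.72) higher in GATA-1 2RA than in GATA-1 V205M. GATA-1 V205M and GATA-1 WT, at a ratio of 0.781 (0.523 to 1.15), were the only neighbours in the order of Jun levels whose interval included 1. The authors' deposited table gives Jun an adjusted p of 0.00134 for GATA-1 WT against G1E control and 0.00412 for GATA-1 V205M against G1E control. For GATA-1 2RA against G1E control the authors' deposited table has 5.62e-12.

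Klf6 encodes a zinc finger factor of the Krüppel-like family, which binds GC-rich promoters. Its levels were 268 scaled reads (425 reads) in GATA-1 WT, 219 (307 reads) in GATA-1 2RA and 69.3 (89 and 62 reads) in GATA-1 V205M, against 93.7 (98 and 37 reads) in G1E control. The groups fell into a high pair, GATA-1 WT and GATA-1 2RA, and a low pair, GATA-1 V205M and G1E control. Against G1E control Klf6 was listed as 2.86-fold (2.49 to 3.70) higher in GATA-1 WT and 2.34-fold (2.02 to 3.06) higher in GATA-1 2RA. It was not listed in GATA-1 V205M, at a ratio of 0.739 (0.621 to 1.003). The level in GATA-1 V205M was 3.86-fold (3.18 to 4.65) lower than in GATA-1 WT, and that in GATA-1 2RA was 3.16-fold (2.58 to 3.84) higher than in GATA-1 V205M, both listed. Within the high pair, GATA-1 2RA stood at 0.819 (0.705 to 0.951) of GATA-1 WT, which was not listed. The rise in GATA-1 WT depended on the scaling of the libraries: it was 1.5 on the log2 scale as deposited, 0.77 after rescaling to equal totals and 0.74 after rescaling by the median ratio, below the 2-fold limit under both. In GATA-1 2RA against the control the 2 rescalings gave 0.90 and 0.65, also below it. Both rescalings rest on the 1157 genes with a level in all 4 groups, every one of them listed in some comparison. They can therefore take up real change as well as library size, and which scaling is right was not tested.

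Zfp36 encodes tristetraprolin, a CCCH zinc finger protein that binds AU-rich elements and brings the deadenylase complex to short-lived mRNAs. It had 52.9 scaled reads (74 reads) in GATA-1 2RA and 5.44 (8 and 4 reads) in GATA-1 V205M, against 37.9 (59 and 9 reads) in G1E control. No table gave its level in GATA-1 WT, since none of the 3 comparisons with GATA-1 WT listed it. GATA-1 V205M therefore stood apart from the other measured groups, on 12 reads. Zfp36 was listed as 6.96-fold (4.31 to 16.3) lower in GATA-1 V205M than in G1E control and as 9.72-fold (5.14 to 19.3) higher in GATA-1 2RA than in GATA-1 V205M. GATA-1 2RA and G1E control, at a ratio of 1.40 (0.841 to 1.67), were not listed as different. The 2 columns of the control held 50.5 and 25.2 scaled reads, a log2 ratio of 1.005. The SD of that ratio was 0.427 over 1282 genes with 20 or more and under 200 reads. Without the first, deeper column of the control, the log2 change of Zfp36 in GATA-1 V205M was -2.02, against -2.59 with both, and in GATA-1 2RA 1.04, against 0.47.

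Dusp1 encodes MKP-1, a nuclear phosphatase that switches off p38 and JNK kinases. Its levels were 188 scaled reads (299 reads) in GATA-1 WT, 43.6 (61 reads) in GATA-1 2RA and 30.7 (40 and 27 reads) in GATA-1 V205M, against 41.3 (41 and 17 reads) in G1E control. Only GATA-1 WT stood out, and the other 3 groups lay within 30.7 to 43.6 scaled reads. Dusp1 was listed as higher in GATA-1 WT, with a fold of 4.55 (3.73 to 6.68) over G1E control, as 4.32-fold (3.27 to 5.79) lower in GATA-1 2RA than in GATA-1 WT, and as 6.13-fold (4.65 to 8.04) lower in GATA-1 V205M than in GATA-1 WT. Between the other 3 groups no comparison was listed and each interval included 1: GATA-1 2RA over G1E control was 1.05 (0.787 to 1.67), GATA-1 V205M over G1E control 0.743 (0.565 to 1.18), and GATA-1 2RA over GATA-1 V205M 1.42 (0.977 to 2.02).

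Txnip encodes an arrestin-like protein that binds thioredoxin and limits glucose uptake. It had 380 scaled reads (604 reads) in GATA-1 WT, 224 (314 reads) in GATA-1 2RA and 110 (132 and 107 reads) in GATA-1 V205M, against 26.0 (28 and 10 reads) in G1E control. No counting interval between neighbours in this order included 1. Txnip was listed in all 3 comparisons with the control, as 14.6-fold (11 to 21.8) higher in GATA-1 WT, 8.63-fold (6.42 to 13.0) higher in GATA-1 2RA and 4.25-fold (3.14 to 6.42) higher in GATA-1 V205M. Between the GATA-1 groups it was listed as 3.45-fold (2.96 to 4.01) lower in GATA-1 V205M than in GATA-1 WT and 2.03-fold (1.71 to 2.41) higher in GATA-1 2RA than in GATA-1 V205M, just past the 2-fold limit. By the median ratio that last difference was 0.69 on the log2 scale, against 1.02 as deposited, and so below the limit. GATA-1 2RA stood at 0.590 (0.513 to 0.677) of GATA-1 WT, inside that limit.

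Ddit3 encodes CHOP, a C/EBP-family factor induced downstream of ATF4 when eIF2α is phosphorylated. Its levels were 290 scaled reads (461 reads) in GATA-1 WT, 194 (271 reads) in GATA-1 2RA and 123 (125 and 138 reads) in GATA-1 V205M, against 41.2 (57 and 12 reads) in G1E control. The order was that of Txnip, with smaller steps. Ddit3 was listed as 7.05-fold (4.97 to 8.39) higher in GATA-1 WT, 4.70-fold (3.27 to 5.66) higher in GATA-1 2RA and 2.98-fold (2.06 to 3.56) higher in GATA-1 V205M than in G1E control. It was 2.36-fold (2.05 to 2.79) lower in GATA-1 V205M than in GATA-1 WT, also listed. That log2 difference, -1.23 as deposited, was -0.81 with equal totals and -0.71 by the median ratio, below the 2-fold limit under both. Neither GATA-1 2RA over GATA-1 WT, at 0.667 (0.572 to 0.776), nor GATA-1 2RA over GATA-1 V205M, at 1.58 (1.34 to 1.89), passed the 2-fold limit, although neither interval included 1.

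**Figure D2:**
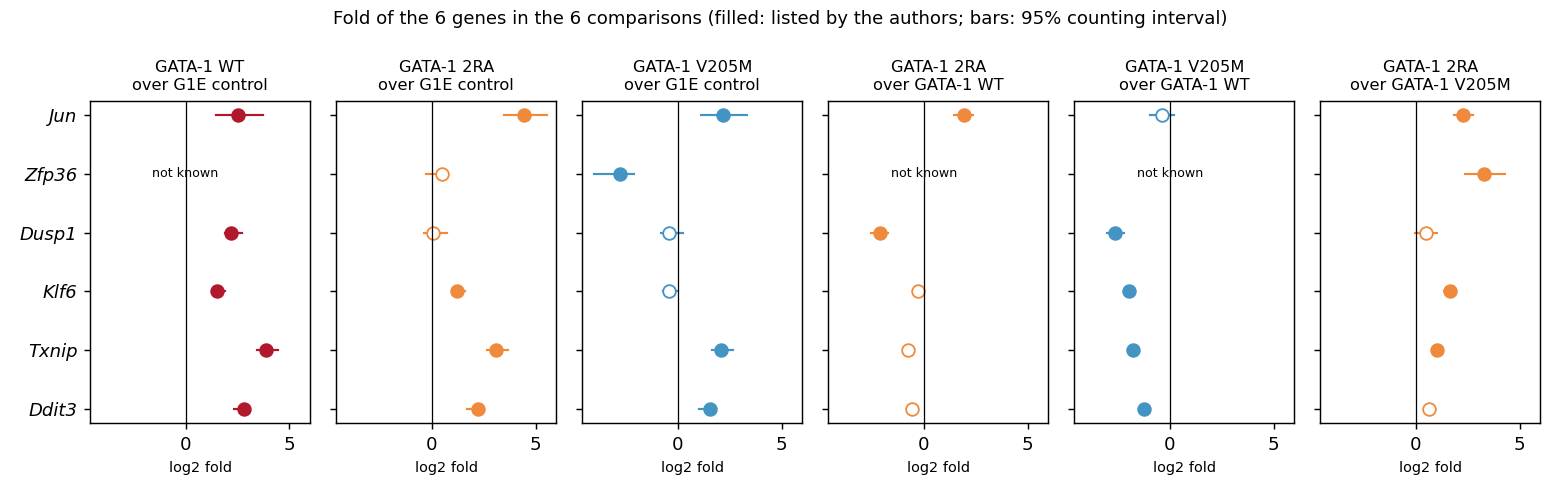
Fold of each of the 6 genes on a log2 axis in the 6 comparisons, first named group over second, with bars for the 95% counting interval, filled points where the authors' table lists the gene and open points where it does not. Jun, Dusp1, Klf6, Txnip and Ddit3 are filled to the right of 0 in GATA-1 WT over G1E control, and Dusp1, Klf6, Txnip and Ddit3 are filled to the left of 0 in GATA-1 V205M over GATA-1 WT.

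Counted by comparison, 5 of the 6 genes were listed higher and 0 lower in GATA-1 WT against G1E control, where 8.17% of the 12931 tested genes were listed higher and 4.86% lower. In GATA-1 2RA against G1E control 4 were listed higher and 0 lower, beside 4.86% and 2.61% of tested genes. GATA-1 V205M against G1E control gave 3 higher and 1 lower, beside 4.83% and 3.32%. These 3 comparisons share the control sample, and the genes were picked with such results known, so the counts describe the 6 genes and support nothing further. The median log2 change of the genes with both levels was 2.34 in GATA-1 WT (over 5 genes), 1.71 in GATA-1 2RA cells and 0.57 in GATA-1 V205M (over 6 genes each). Over all listed genes it was 1.23, 1.23 and 1.11. These medians are of unlike sets: those of the 6 take in genes that were not listed, while every listed gene changed more than 2-fold. Rescaling the libraries lowers every log2 change of GATA-1 WT over G1E control alike. With equal totals and by the median ratio, in that order, it left 1.66 and 1.63 for Jun (2.34 as deposited), 1.44 and 1.40 for Dusp1 (2.16), 3.10 and 3.07 for Txnip (3.82), and 2.06 and 2.03 for Ddit3 (2.79).

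Between the GATA-1 groups the split went both ways. GATA-1 2RA against GATA-1 WT had 1 listed higher (Jun) and 1 lower (Dusp1), beside 3.33% and 4.04% of tested genes. For GATA-1 V205M against GATA-1 WT there were 0 higher and 4 lower (Dusp1, Klf6, Txnip and Ddit3), beside 3.7% and 5.65%. Set against GATA-1 V205M, GATA-1 2RA had 4 higher (Jun, Zfp36, Klf6 and Txnip) and 0 lower, beside 3.6% and 2.62%. The same shares are the background for the list counts between GATA-1 groups given further on. Median log2 changes over the genes with both levels, listed or not, were -0.58, -1.78 and 1.33 in these 3 comparisons. Over all listed genes, an unlike set, they were -1.07, -1.16 and 1.18.

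The wider class of immediate early genes was sparsely represented in the tables. Of 40 immediate early factors and early response genes, 8 were in any table: Jun, Klf6, Myc, Klf10, Srf, Btg2, Sgk1 and Id1. Fos, Egr1, Junb, Atf3 and Nr4a1, the best-known genes of the class, were in none of the 6 tables, so nothing is known of their levels here. Against G1E control 3 were listed higher and 3 lower in GATA-1 WT, 4 higher and 0 lower in GATA-1 2RA, and 3 higher and 1 lower in GATA-1 V205M. The shares of all tested genes were 8.17% and 4.86%, 4.86% and 2.61%, and 4.83% and 3.32% in the same order, and counts this small are read as no result about the class. By the median ratio 2 of the 4 in GATA-1 2RA stayed above 2-fold. Against GATA-1 WT, GATA-1 2RA had 3 higher and 1 lower and GATA-1 V205M 3 higher and 2 lower, and GATA-1 2RA over GATA-1 V205M had 2 higher and 1 lower. Btg2, an antiproliferative gene of the BTG/TOB family, had the widest span, with 1120 scaled reads in GATA-1 WT cells, 167 in GATA-1 2RA cells and 174 in GATA-1 V205M cells, against 11.3 in G1E control. Its fold in GATA-1 WT over G1E control was 99.3 (68.9 to 204), and it was 6.70-fold (5.85 to 7.71) lower in GATA-1 2RA than in GATA-1 WT, the reverse of Jun in the second of these comparisons. Klf10, a relative of Klf6 known as a TGF-β-inducible gene, was lowest in GATA-1 WT, where Klf6 was highest, with 37.8 scaled reads in GATA-1 WT cells, 96.4 in GATA-1 2RA cells and 48.9 in GATA-1 V205M cells, against 184 in G1E control. It was listed as 4.88-fold (3.89 to 6.92) lower in GATA-1 WT than in G1E control. Sgk1, a serum- and glucocorticoid-induced kinase, had 26.5 scaled reads in GATA-1 WT cells, 38.6 in GATA-1 2RA cells and 189 in GATA-1 V205M cells, against 29.3 in G1E control. It was listed higher in GATA-1 V205M than in GATA-1 WT and G1E control. Id1, a helix-loop-helix inhibitor, shared its top group with Jun, with 64.2 scaled reads in GATA-1 WT cells, 235 in GATA-1 2RA cells and 136 in GATA-1 V205M cells, against 93.7 in G1E control.

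Zfp36 has a pair of relatives in the tables, Zfp36l1 and Zfp36l2. Of 16 genes of CCCH-directed mRNA decay, 5 were in any table, and all listed calls against G1E control were lower. They were 3 in GATA-1 WT cells, 3 in GATA-1 2RA cells and 2 in GATA-1 V205M cells, with 0 higher in each. The shares of all tested genes listed lower were 4.86%, 2.61% and 3.32% in the same order, and those listed higher 8.17%, 4.86% and 4.83%. Counts this small are read as no result about these genes as a class. Zfp36l1 had 111 scaled reads in GATA-1 WT cells, 127 in GATA-1 2RA cells and 287 in GATA-1 V205M cells, against 551 in G1E control. Zfp36l2 had 44.7 in GATA-1 WT cells, 144 in GATA-1 2RA cells and 50.4 in GATA-1 V205M cells, against 382 in G1E control. Both relatives, which bind the same AU-rich elements, were thus lower in GATA-1 2RA than in the control, by 4.33-fold (3.8 to 5.28) and 2.66-fold (2.36 to 3.26), a comparison in which Zfp36 was not listed. In GATA-1 V205M against G1E control Zfp36l2 was listed as 7.58-fold (6.47 to 9.86) lower beside the 6.96-fold of Zfp36, and in GATA-1 2RA over GATA-1 V205M it was listed as 2.85-fold (2.26 to 3.67) higher beside the 9.72-fold of Zfp36. Whether the relatives differ from Zfp36 was not tested. GATA-1 2RA over GATA-1 WT had 2 higher and 0 lower (Zfp36l2 and the decapping enzyme Dcp2), GATA-1 V205M over GATA-1 WT 1 higher and 0 lower (Zfp36l1), and GATA-1 2RA over GATA-1 V205M 2 higher and 1 lower.

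The other MAP kinase phosphatases in the tables differed among themselves. Of 33 MAP kinase phosphatases, kinases and inhibitors, 10 were in any table. Against G1E control 3 were listed higher and 4 lower in GATA-1 WT, 2 higher and 0 lower in GATA-1 2RA, and 3 higher and 1 lower in GATA-1 V205M. The shares of tested genes were again 8.17% and 4.86%, 4.86% and 2.61%, and 4.83% and 3.32%, and these small counts too are read as no result about the family. After either rescaling 1 of the 3 higher genes in GATA-1 WT stayed above 2-fold. Dusp16, a JNK and p38 phosphatase, was listed in the direction of Dusp1 in GATA-1 WT, with 120 scaled reads in GATA-1 WT cells and 118 in GATA-1 V205M cells, against 41.2 in G1E control, and has no level for GATA-1 2RA in the tables. Dusp3, the ERK and JNK phosphatase VHR, had 1.26 scaled reads (2 reads) in GATA-1 WT cells, 155 in GATA-1 2RA cells and 23.7 in GATA-1 V205M cells, against 12.8 in G1E control. Its ratio of GATA-1 2RA to GATA-1 WT was 123 (33.7 to 1023), where Dusp1 was listed lower. Dusp7, an ERK phosphatase, had 5.67 scaled reads in GATA-1 WT cells, 35.7 in GATA-1 2RA cells and 26.2 in GATA-1 V205M cells, against 85.2 in G1E control, so Dusp3 and Dusp7 were at their lowest in the group where Dusp1 was at its highest. Mapk9, which encodes the c-Jun kinase JNK2, had 192 scaled reads in GATA-1 WT cells, 93.6 in GATA-1 2RA cells and 317 in GATA-1 V205M cells, against 90.9 in G1E control. Map2k4, which activates JNK, had 441 scaled reads in GATA-1 WT cells, 356 in GATA-1 2RA cells and 936 in GATA-1 V205M cells, against 353 in G1E control. GATA-1 2RA, the group with the most Jun RNA, was listed lower than GATA-1 V205M for Mapk9, by 3.39-fold (2.82 to 4.13), and for Map2k4, by 2.63-fold (2.38 to 2.91). Map3k1, a kinase upstream of Map2k4, ran the other way, 4.72-fold (3.68 to 6.18) higher in GATA-1 2RA than in GATA-1 V205M, with 178 scaled reads in GATA-1 2RA cells and 37.7 in GATA-1 V205M cells, against 70.4 in G1E control. The comparisons between GATA-1 groups had 3 higher and 2 lower in GATA-1 2RA over GATA-1 WT, 3 higher and 1 lower in GATA-1 V205M over GATA-1 WT, and 3 higher and 2 lower in GATA-1 2RA over GATA-1 V205M.

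**Figure D3:**
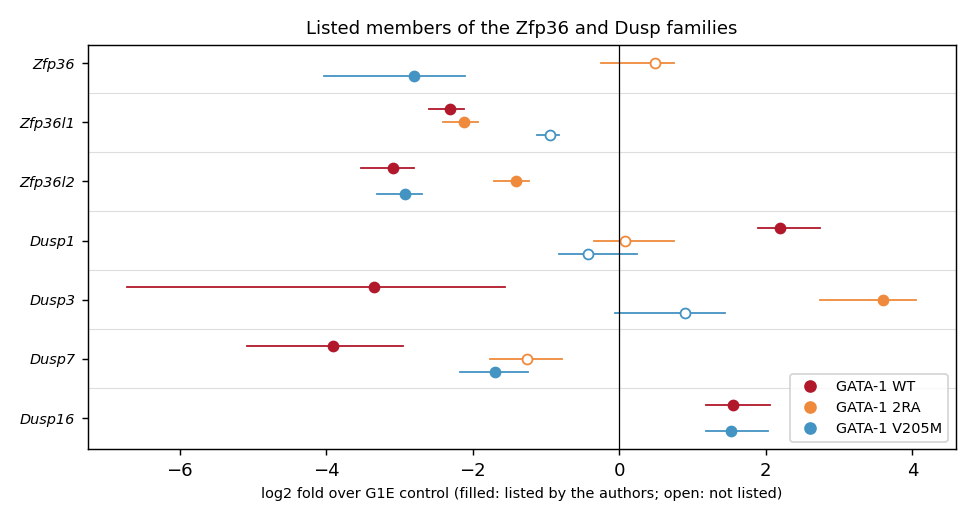
Log2 fold over G1E control for Zfp36, Dusp1 and the members of their families that are in the tables, in each of the 3 GATA-1 groups, with bars for the 95% counting interval, filled points where listed and open points where not. Dusp1 lies right of 0 in GATA-1 WT while Dusp3 and Dusp7 lie left of it, and Zfp36l1 and Zfp36l2 lie left of 0 in all 3 groups.

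Among genes around Ddit3 in the integrated stress and unfolded protein response, those listed in GATA-1 WT were mostly higher. Of 45 such genes 15 were listed higher and 1 lower against G1E control, beside 8.17% and 4.86% of all tested genes. After rescaling to equal totals or by the median ratio, 6 of the 15 stayed above 2-fold, and so did the lower one. Without Ddit3 they were 14 and 1 of 44. The median log2 change of the listed ones, with Ddit3 included, was 1.35 beside 1.23 over all listed genes. The higher genes were Ddit3, Ppp1r15a, Ppp1r15b, Eif2ak1, Ddit4, Xbp1, Cebpg, Asns, Mthfd2, Atf4 and the aminoacyl-tRNA synthetases Aars, Gars, Sars, Wars and Nars. The lower one was Calr, a chaperone of the endoplasmic reticulum. In GATA-1 2RA 7 were listed higher and 0 lower than in the control, and in GATA-1 V205M 6 and 0, beside 4.86% and 2.61%, and 4.83% and 3.32%, of tested genes. Under either rescaling 3 of the 7 and 4 of the 6 stayed above 2-fold. Ddit3, Ppp1r15a, Ppp1r15b, Eif2ak1 and Wars were listed higher in each of the 3 GATA-1 groups, which share the control sample. This gene list was chosen with earlier results of these data known, and no share of tested genes was taken after rescaling. The counts therefore describe the genes on it and support nothing further.

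Ppp1r15a, known as GADD34, which brings a phosphatase to eIF2α, had the largest change of the list in GATA-1 WT over G1E control. It had 1377 scaled reads in GATA-1 WT cells, 223 in GATA-1 2RA cells and 159 in GATA-1 V205M cells, against 56.0 in G1E control. Its fold over the control was 24.6 (17.3 to 26.2) in GATA-1 WT cells, 3.98 (2.73 to 4.35) in GATA-1 2RA cells and 2.85 (1.95 to 3.09) in GATA-1 V205M. The groups took the same order as for Ddit3, with a larger step below GATA-1 WT. Eif2ak1, the heme-regulated eIF2α kinase, had 452 scaled reads in GATA-1 WT cells, 147 in GATA-1 2RA cells and 219 in GATA-1 V205M cells, against 69.8 in G1E control. Ppp1r15b, the constitutive counterpart of GADD34, had 3658 in GATA-1 WT cells, 1723 in GATA-1 2RA cells and 1780 in GATA-1 V205M cells, against 776 in G1E control. Cebpg, a C/EBP-family partner of ATF4, was high in GATA-1 WT alone, with 193 scaled reads, against 59.3 in GATA-1 2RA, 69.4 in GATA-1 V205M and 76.4 in G1E control. Slc7a5, an amino acid transporter under ATF4, ran otherwise, with 940 in GATA-1 WT cells, 1476 in GATA-1 2RA cells and 1982 in GATA-1 V205M cells, against 638 in G1E control.

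Set against GATA-1 WT, 0 of the 45 were listed higher and 5 lower in GATA-1 2RA, and 1 higher and 7 lower in GATA-1 V205M. Under either rescaling 3 of the 5 stayed beyond 2-fold, while of the 7 it was 4 with equal totals and 1 by the median ratio. Ppp1r15a was 6.18-fold (5.48 to 6.98) lower in GATA-1 2RA and 8.64-fold (7.74 to 9.75) lower in GATA-1 V205M than in GATA-1 WT. Cebpg was 3.26-fold (2.55 to 4.21) lower in GATA-1 2RA and 2.79-fold (2.27 to 3.39) lower in GATA-1 V205M. Slc7a5 was the gene higher in GATA-1 V205M. Between GATA-1 2RA and GATA-1 V205M none of the 45 was listed in either direction by the authors' limits.

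**Figure D4:**
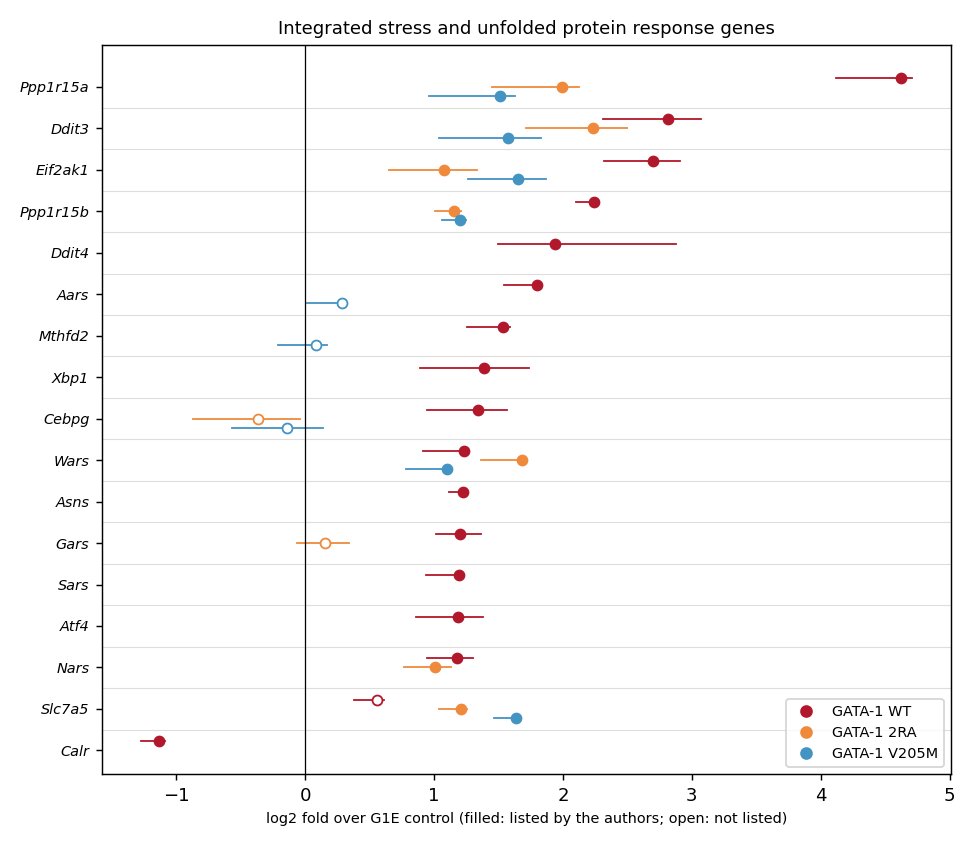
Log2 fold over G1E control for the 17 integrated stress and unfolded protein response genes in the tables, ordered by the fold in GATA-1 WT (a gene with no GATA-1 2RA or GATA-1 V205M point has no level for that group in the tables), with bars for the 95% counting interval, filled points where listed and open points where not. Ppp1r15a and Ddit3 lead in GATA-1 WT, and Calr is the only gene left of 0 there.

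Of 15 genes of the thioredoxin system, α-arrestins and the glucose-sensing pathway around Txnip, 7 were in any table. Against G1E control 4 were listed higher and 1 lower in GATA-1 WT cells, 3 and 0 in GATA-1 2RA cells, and 3 and 1 in GATA-1 V205M. The shares of all tested genes were 8.17% and 4.86%, 4.86% and 2.61%, and 4.83% and 3.32% in the same order. Counts this small are read as no result about the list. After either rescaling 2 of the 4 in GATA-1 WT and 1 of the 3 in GATA-1 2RA stayed above 2-fold. Arrdc3, an α-arrestin related to Txnip, was higher in each GATA-1 group, with 225 scaled reads in GATA-1 WT cells, 82.9 in GATA-1 2RA cells and 86.0 in GATA-1 V205M cells, against 35.3 in G1E control. Arrdc1, another α-arrestin, was not, with 34.6 scaled reads in GATA-1 WT cells, 87.2 in GATA-1 2RA cells and 25.9 in GATA-1 V205M cells, against 88.7 in G1E control. Foxo3, a transcription factor of erythroid redox defence, was listed as 2.79-fold (2.38 to 2.97) higher in GATA-1 WT and 2.32-fold (1.96 to 2.48) higher in GATA-1 2RA than in the control. Between the GATA-1 groups, GATA-1 2RA over GATA-1 WT had 0 higher and 1 lower, GATA-1 V205M over GATA-1 WT 2 higher and 2 lower, and GATA-1 2RA over GATA-1 V205M 2 higher and 0 lower.

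Lists of other stress programs were read against the same background: 8.17% of tested genes higher and 4.86% lower in GATA-1 WT, 4.86% and 2.61% in GATA-1 2RA, and 4.83% and 3.32% in GATA-1 V205M over G1E control. Of 23 oxidative stress genes 5 were listed higher and 1 lower in GATA-1 WT cells, 4 and 2 in GATA-1 2RA cells, and 4 and 2 in GATA-1 V205M against G1E control. After either rescaling 3 of the 5 higher oxidative stress genes in GATA-1 WT stayed above 2-fold. By the median ratio 2 of the 4 in GATA-1 2RA did. Bach1, the heme-binding repressor of this response, had 487 scaled reads in GATA-1 WT cells, 373 in GATA-1 2RA cells and 435 in GATA-1 V205M cells, against 38.1 in G1E control. Prdx2, the main red cell peroxiredoxin, had 8249 scaled reads in GATA-1 WT cells, 2756 in GATA-1 2RA cells and 1555 in GATA-1 V205M cells, against 1916 in G1E control, and so resembled Dusp1 in standing high in GATA-1 WT alone. Of 22 heat shock genes 2 were listed higher and 1 lower in GATA-1 WT cells, 2 and 1 in GATA-1 2RA cells, and 6 and 0 in GATA-1 V205M, where the cytosolic chaperone gene Hsp90aa1 and the mitochondrial chaperonin gene Hspd1 were among the higher. After either rescaling 0 of the 2 in GATA-1 WT, 0 of the 2 in GATA-1 2RA and 3 of the 6 in GATA-1 V205M stayed above 2-fold. Hsp90aa1 had 2529 scaled reads in GATA-1 WT cells, 6588 in GATA-1 2RA cells and 7234 in GATA-1 V205M cells, against 2918 in G1E control. Of 22 p53 and DNA damage genes 4 were listed higher and 0 lower in GATA-1 WT cells, 3 and 1 in GATA-1 2RA cells, and 1 and 1 in GATA-1 V205M. After either rescaling 1 of the 4 in GATA-1 WT stayed above 2-fold. Gadd45a, a stress sensor of MAP kinase signalling, was also highest in GATA-1 WT, with 150 scaled reads in GATA-1 WT cells, 22.1 in GATA-1 2RA cells and 30.0 in GATA-1 V205M cells, against 48.4 in G1E control. Against GATA-1 WT, the oxidative stress list had 1 higher and 3 lower in GATA-1 2RA and 3 and 4 in GATA-1 V205M, the heat shock list 2 and 0 in GATA-1 2RA and 4 and 1 in GATA-1 V205M, and the p53 list 0 and 2 in GATA-1 2RA and 2 and 3 in GATA-1 V205M. GATA-1 2RA over GATA-1 V205M had 2 higher and 4 lower, 0 and 2, and 1 and 1 for the same 3 lists in turn. Of the 4 oxidative stress genes lower in GATA-1 V205M than in GATA-1 WT, 2 stayed beyond 2-fold with equal totals and 1 by the median ratio. Of the 3 p53 genes lower there, 1 stayed under either rescaling.

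The genes most like each of the 6 over the 4 groups were found by the distance between centred log2 levels among the 1157 genes with a level in all 4 groups. Those nearest to Txnip were Lmo2 (distance 0.192 on the log2 scale), Gata1 (0.262) and Tulp2 (0.516). Lmo2, the bridging protein of the GATA-1 and TAL1 complex, had 1293 scaled reads in GATA-1 WT cells, 694 in GATA-1 2RA cells and 401 in GATA-1 V205M cells, against 82.2 in G1E control. Nearest to Ddit3 were Tbc1d24 (0.111), Mafk (0.123) and Arpc1a (0.207). Mafk, a small Maf factor, had 304 scaled reads in GATA-1 WT cells, 198 in GATA-1 2RA cells and 138 in GATA-1 V205M cells, against 41.4 in G1E control, close to Ddit3 in each group. Those nearest to Klf6 were Mllt3 (0.0786), Arl6ip1 (0.249) and Fbxo6 (0.256), where Mllt3 is a chromatin reader of the AF9 kind. Dusp1 was nearest to Sgk3 (0.177), Gm15703 (0.222) and Pif1 (0.243). Jun had no gene as near, with Lyn at 0.453, Furin at 0.703 and Nin at 0.828. Lyn, a Src-family kinase, had 66.8 scaled reads in GATA-1 WT cells, 294 in GATA-1 2RA cells and 49.2 in GATA-1 V205M cells, against 17.9 in G1E control. Zfp36 could not be placed, since it has no level in GATA-1 WT. With 4 points a gene, these distances describe likeness in these samples only.

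Levels of cell type marker RNAs also differed between the groups. All 10 erythroid markers were in some table, and the 8 with all 4 levels, globins and Alas2 among them, summed to 65771 scaled reads in GATA-1 WT cells, 2971 in GATA-1 2RA cells and 785 in GATA-1 V205M cells, against 2248 in G1E control. Of 10 mast cell markers 6 were in the tables, and with Cpa3, the mast cell carboxypeptidase, they summed to 15.7 in GATA-1 WT cells, 223 in GATA-1 2RA cells and 1877 in GATA-1 V205M cells, against 3272 in G1E control. The other 5, without Cpa3, summed to 15.1 in GATA-1 WT cells, 218 in GATA-1 2RA cells and 1863 in GATA-1 V205M cells, against 477 in G1E control, so that GATA-1 V205M then stood above the control. Ms4a2, Tpsab1, Hdc and Il1rl1 were each higher in GATA-1 V205M than in G1E control, and Cpa3 and Gzmb lower. Cpa3 was at 0.630 scaled reads in GATA-1 WT, a recovered count of 1, which is the lowest of that column and may stand for no read. Of 10 megakaryocyte markers 3 were in the tables. The 1 with all 4 levels, Plek, had 368 scaled reads in GATA-1 WT cells, 1319 in GATA-1 2RA cells and 18.7 in GATA-1 V205M cells, against 237 in G1E control. Gp5 had 63.6 in GATA-1 2RA, 5.94 in GATA-1 V205M and 29.4 in G1E control, with no level for GATA-1 WT. Tubb1 had 63.6 in GATA-1 WT, 0.931 in GATA-1 V205M and 1.83 in G1E control, with no level for GATA-1 2RA. None of 10 neutrophil and macrophage markers was in any table. The high Dusp1 of GATA-1 WT thus lies in the group with the most erythroid marker RNA. The high Jun of GATA-1 2RA lies in the group with the most Plek, a single marker of its list. The low Zfp36 of GATA-1 V205M lies in the group with the least Plek. That group also had the lowest erythroid sum and, without Cpa3, the highest mast cell sum. The part of these markers in the results was not tested. In bulk RNA fewer cells of a type and less RNA per cell cannot be told apart.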

How the data were processed

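RNA-seq was done on total RNA of 4 G1E samples, 1 per group, with a TruSeq RNA library kit, per the labels' protocols. The submitters' processing notes name the mm10 build and the tools TopHat, Cufflinks, Cuffdiff and deepTools, with no version or role. The signal in the deposited tables is a group's read count as scaled by the authors with 1 size factor per count column, which the values themselves show. These factors were 1.59 (GATA-1 WT), 1.40 (GATA-1 2RA), 1.16 and 0.998 (both columns of GATA-1 V205M), and 1.17 and 0.357 (both columns of G1E control). The deposited fold divides one group level by the other, and its log2 is deposited beside it. The authors gave a p-value and an adjusted p-value over 12931 genes. No label or header names the tool behind that test. Every level (100.0%) was solved by 1 whole number of reads per count column, within a relative tolerance of 1e-11 (2e-09 for the rounded table of GATA-1 2RA against GATA-1 V205M), and the lowest count was 1 in every column. The recovery took the lowest level of a group as 1 read per column. It cannot tell whether 1 had been added to each count, so a count of 1 may stand for no read. The labels do not say whether the 2 columns of a group were separate cultures.

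Folds are ratios of the authors' levels. Their 95% intervals are exact binomial (Clopper-Pearson) intervals from the pooled reads, and 1 scaled read was added to each level before log2 changes were taken. The 6 genes and the 8 gene lists were chosen with earlier results of these data known. Named genes were the 6, Gata1, the markers, any list gene in a table (with values for at most the 4 largest changes per list and comparison), and the 3 nearest genes with 10 or more scaled reads in the highest group. Alternatives were other scalings, pseudocounts, count columns and limits, and edgeR 4.0.16's quasi-likelihood test on the recovered reads of 1157 genes. That test takes count columns as units (2 residual degrees of freedom, common BCV 0.0517), so it may measure the spread between runs of 1 sample. At an FDR below 0.05 it called 624 genes higher and 403 lower in GATA-1 WT cells, 573 and 325 in GATA-1 2RA cells, and 520 and 393 in GATA-1 V205M cells against G1E control. It called 439 and 507 in GATA-1 2RA and 397 and 586 in GATA-1 V205M against GATA-1 WT, and 525 and 356 in GATA-1 2RA against GATA-1 V205M. All 1157 genes were already listed in some comparison, and GATA-1 WT and GATA-1 2RA have 1 count column each. The edgeR counts are therefore read as no result. Promoters and positions came from RefSeq (GRCm38.p6). Python 3.11.15, scipy 1.17.1 and R 4.3.3 were used, and the recovery of reads was tested on simulated data.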

Additional observations from a re-analysis of the deposited data

How the results depend on the processing

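No listed log2 change of the 6 genes turned round when 1 count column was left out. The rescalings and pseudocounts could not have turned one. The rescalings moved every comparison by less than the 2-fold limit, and a pseudocount added to both levels keeps the sign. No paired analysis was possible because each group is 1 sample. Rescaling to equal totals over 1157 genes lowered GATA-1 WT by 0.395 and raised G1E control by 0.339 on the log2 scale. Rescaling by the median ratio over the same genes lowered GATA-1 WT by 0.373 and raised G1E control by 0.397. All 1157 are listed in some comparison, so both rescalings can take up real change as well as library size. Which scaling is right was not tested. With equal totals, log2 changes in GATA-1 WT over G1E control were 1.44 (Dusp1), 0.77 (Klf6), 3.10 (Txnip) and 2.06 (Ddit3), and Klf6 had 0.90 in GATA-1 2RA cells and -0.73 in GATA-1 V205M cells over that control. Against GATA-1 WT, Jun, unlisted there, had -0.35 in GATA-1 V205M as deposited, against 0.07 and 0.16 under these rescalings. With equal totals the others were -1.67 (Dusp1), 0.13 (Klf6, unlisted and of the other sign), -0.34 (Txnip) and -0.17 (Ddit3) in GATA-1 2RA, and -2.15, -1.51, -1.35 and -0.81 for Dusp1, Klf6, Txnip and Ddit3 in GATA-1 V205M. With the median ratio, GATA-1 WT over G1E control gave 1.40 (Dusp1), 0.74 (Klf6), 3.07 (Txnip) and 2.03 (Ddit3), GATA-1 2RA over G1E control -0.49 (Dusp1, unlisted and of the other sign), 0.65 (Klf6), 2.50 (Txnip) and 1.64 (Ddit3), GATA-1 V205M over GATA-1 WT -2.06, -1.41, -1.25 and -0.71 in that gene order, and GATA-1 2RA over GATA-1 V205M 1.32 (Klf6), 0.69 (Txnip) and 0.32 (Ddit3). Without the first control column, Zfp36 had 1.04 in GATA-1 2RA cells and -2.02 in GATA-1 V205M cells, and Ddit3 3.07 in GATA-1 WT and 1.84 in GATA-1 V205M, over that control. With a pseudocount of 5, Zfp36 had -2.04 in GATA-1 V205M over G1E control. In the edgeR fit the unlisted log2 changes in GATA-1 2RA over GATA-1 WT were -0.29 (Klf6), -0.76 (Txnip) and -0.58 (Ddit3). In GATA-1 2RA over GATA-1 V205M they were 0.49 (Dusp1) and 0.67 (Ddit3). GATA-1 WT and GATA-1 2RA have 1 count column each, so the spread in that test came from GATA-1 V205M and G1E control alone. No call is read from it. Zfp36 was not in that test. Shares of all tested genes were taken for the deposited lists only. Counts at a 4-fold limit or after rescaling therefore have no share beside them and are read as no result. At a 4-fold limit the 6 genes had 0 higher in GATA-1 2RA and 1 lower in GATA-1 V205M over GATA-1 WT, and 2 higher in GATA-1 2RA over GATA-1 V205M. The integrated stress list then had 4 higher and 0 lower in GATA-1 WT, 1 higher in GATA-1 2RA and 0 higher in GATA-1 V205M over G1E control, and 1 lower in GATA-1 2RA, 1 lower and 0 higher in GATA-1 V205M over GATA-1 WT. With a 2-fold limit kept after rescaling, a setting chosen after seeing the data, that list had 6 higher in GATA-1 WT and 3 higher in GATA-1 2RA over G1E control and 3 lower in GATA-1 2RA over GATA-1 WT under both rescalings, and in GATA-1 V205M over GATA-1 WT 4 lower with equal totals and 1 by the median ratio. The causes of these shifts were not tested beyond the settings themselves. Depth limits Jun in G1E control (9 reads) and Zfp36 in GATA-1 V205M (12 reads) most.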
